A study of Mus musculus with 14 samples.

Results

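The oxidative stress defense genes described here are 10 genes taken as a set list, of 21440 protein-coding genes whose start could be placed in the mouse genome build GRCm38. The list holds 3 regulators, Foxo3, Nfe2l2, and Keap1, and 7 antioxidant enzymes, Sod1, Sod2, Cat, Prdx1, Gclc, Gclm, and Hmox1. Peaks of trimethylated lysine 4 of histone H3 (H3K4me3) that overlapped the 1 kb on either side of each gene start were taken from 7 peak lists. Of the 10 genes, 8 had such a peak in all 7 lists, Cat had one in 6 lists, and Hmox1 had none.

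The lists came from LSK cells (Lin-Sca1+cKit+), the BM fraction that holds hematopoietic stem cells and multipotent progenitors. These cells were sorted from C57B6/J mice (males, written C57BL/6J, in the study's methods) that were kept either on a high-fat diet (HFD-LSK, 3 libraries) or on the comparison diet (LFD-LSK, 4 libraries), which the labels call both LFD and normal fat. H3K4me3 was mapped by CUT&Tag, in which an antibody brings a transposase to the marked chromatin, and each list holds the peaks of 1 library. The sources used here do not tell whether a library stands for a single mouse, so the p-values below measure the spread between libraries. The study added a later cohort for the LSK comparison. Its methods state that diets were compared only within a cohort, and that its differential peak analysis took batch and paired samples into account. Since the labels assign no library to a cohort, the tests treat the 7 libraries as exchangeable and a part of cohort was not tested.

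H3K4me3 marks the nucleosomes around the starts of active and poised genes, and wide stretches of it are often found at genes that define a cell's identity. NRF2, the product of Nfe2l2, is a transcription factor that turns on genes of glutathione synthesis, peroxide removal, and heme breakdown through antioxidant response elements, and KEAP1 holds it in check by marking it for degradation until oxidants modify KEAP1. FOXO3 is a transcription factor that is known to keep hematopoietic stem cells quiescent and to raise enzymes such as catalase and the mitochondrial superoxide dismutase.

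The HFD-LSK lists held 9186, 13094, and 11977 peaks in replicates 1, 2, and 3, and the LFD-LSK lists held 7447, 10572, 10352, and 6921 in replicates 1 to 4. The lists carry no read totals, but the fragments under each summit could be recovered from its fold enrichment and p-value, with a single solution for 93.5% to 99.4% of the peaks of a list. Among the peaks standing for the genes described here, that of Gclm in LFD-LSK replicate 2 had 2 solutions. The median peak rested on 42, 43, and 15 fragments in HFD-LSK and on 48, 33, 19, and 21 in LFD-LSK. Since fold enrichment, the ratio of a summit to its local background, depends on the depth and background of its own library, it is given as a percentile within its list, counted from the strongest peak, so that a low percentile is a strong peak. The median percentile of all called gene starts ran from 39.3 to 44.7 in the 7 lists. Width is the summed length of the peaks in the window, and its median over all called gene starts ran from 580 to 1357 bp.

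The cell type was read against marker genes. Of 12 genes of stem and progenitor cells, Kit, Cd34, Meis1, Mecom, Gata2, and Tal1 had a peak at their start in all 7 lists, and 4 more had one in some. Ly6a, which encodes the sorting marker Sca-1, and Lmo2 had none, and the nearest peak to the Ly6a start lay 40 to 42 kb away, while Lmo2 had a peak inside the gene in 5 lists. None of 8 granulocyte or monocyte genes (Itgam, Ly6g, S100a8, S100a9, Elane, Mpo, Csf1r, and Ltf) and none of 5 T cell genes (Cd3e, Cd3d, Cd3g, Cd4, and Cd8a) had a peak at its start in any list. No list called more than 3 of 5 erythroid genes (Hbb-bt and Hba-a1 in no list), 1 of 4 megakaryocyte genes (Itga2b, Gp9, and Vwf in no list), or 2 of 5 stromal and endothelial genes (Lepr, Col1a1, and Cdh5 in no list). Itga2b had a peak inside the gene in 4 lists and Mpo in 1. A list of B cell genes was also read, and its values are not reported here.

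Calls at the oxidative stress defense genes barely differed between the lists. Each of the 3 HFD-LSK lists called 9 of the 10 genes, and the LFD-LSK lists called 8, 9, 9, and 9. Of all 21440 gene starts, these lists called 39.0%, 49.2%, and 43.0% in HFD-LSK and 32.8%, 42.7%, 40.8%, and 28.5% in LFD-LSK. Over the series, 20.2% of the 21440 gene starts were called in all 7 lists and 48.7% in none. The 1 gene whose calls differed was Cat, with a peak in all 3 HFD-LSK lists and in 3 of 4 LFD-LSK lists (two-sided p = 1.00 by Fisher's exact test). The list without Cat was LFD-LSK replicate 1.

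Foxo3 carried the widest H3K4me3 domain of the 10 genes, and by mean width over the 7 lists it stood in place 1 among the 4332 gene starts called in all of them. Its start lies at 42276695 on the minus strand of chromosome 10, and its peaks spanned 42273531 to 42278779. The summed width was 4178, 5249, and 2837 bp in HFD-LSK replicates 1, 2, and 3 and 3827, 3993, 4464, and 3948 bp in LFD-LSK replicates 1 to 4. The lowest value came from HFD-LSK replicate 3, where the domain was split into 3 peaks of 1118, 521, and 1198 bp. In the other 6 lists it was 1 unbroken peak, which took width rank 3 and 31 in HFD-LSK replicates 1 and 2 and rank 2, 12, 6, and 1 in LFD-LSK replicates 1 to 4. By mean width, Foxo3 (4071 ± 725 bp, SD, n = 7) was followed by Brd2 (3674 ± 2352 bp, SD, n = 7) and Mycn (3536 ± 1146 bp, SD, n = 7), which were named after their values were seen and lay within their spread of it.

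Foxo3 was also strong in fold enrichment by its highest peak in the window, with percentiles of 5.5, 15.7, and 6.70 in HFD-LSK and 5.49, 3.56, 8.22, and 5.14 in LFD-LSK. In HFD-LSK replicate 3 the value belongs to the outer peak, with its summit at −1256 bp from the start, while the peak over the start stood at 92.3 and the remaining one at 34.5. The 7 values ran from 3.56 to 15.7, and 1.27% of the 4332 gene starts had a mean nearer the top. The diets overlapped in both measures. The mean percentile over the 3 HFD-LSK libraries was 9.32 (SD 5.60) and over the 4 LFD-LSK libraries 5.60 (SD 1.94), and the difference of 3.71 did not exceed the spread (exact permutation test, two-sided, p = 0.229). It was 13.0 with a window of 500 bp and 32.3 with the peak whose summit is nearest the start (each with a two-sided p of 0.0571 by the exact permutation test). Mean width differed by 30.0 bp (exact permutation test, two-sided, p = 0.971).

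Nfe2l2 was called in every list, but its strength varied more than that of Foxo3. Its start lies at 75704663 on the minus strand of chromosome 2, with peaks from 75702861 to 75705398. The fold percentiles were 21.5, 6.83, and 34.9 in HFD-LSK and 71.5, 11.8, 0.966, and 69.4 in LFD-LSK. The LFD-LSK libraries thus held both the strongest value, rank 100 of 10352 peaks in replicate 3, and the weakest ones, in replicates 1 and 4, and they enclosed all HFD-LSK values (difference −17.3, exact permutation test, two-sided, p = 0.457). By summit fragments alone, without the background, the same peaks were all in the stronger part of their lists, at 3.08, 6.06, and 7.68 in HFD-LSK and 21.2, 7.98, 1.28, and 4.13 in LFD-LSK. The width was 1781, 2445, and 2202 bp in HFD-LSK and 879, 1364, 1988, and 1384 bp in LFD-LSK. These ranges overlapped through LFD-LSK replicate 3 (difference 739 bp, exact permutation test, two-sided, p = 0.0857).

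Keap1 was the member whose width separated the diets. Its start lies at 21239332 on the minus strand of chromosome 9, with peaks from 21237260 to 21239882. The width was 2313, 2623, and 1393 bp in HFD-LSK replicates 1, 2, and 3 and 1131, 922, 970, and 556 bp in LFD-LSK replicates 1 to 4. Every HFD-LSK peak was wider than every LFD-LSK peak, and the larger share of the added length lay inside the gene, where the peaks ended 2016, 2072, and 1178 bp downstream of the start in HFD-LSK and 908, 888, 763, and 596 bp downstream in LFD-LSK. The mean reach differed by 967 bp downstream of the start and by 248 bp upstream of it. The mean over the 3 HFD-LSK libraries was 2110 bp (SD 640) and over the 4 LFD-LSK libraries 895 bp (SD 243), a difference of 1215 bp (exact permutation test over the 35 ways to choose 3 of the 7 libraries, two-sided, p = 0.0286, the smallest this design can give). Without any 1 library the difference was 958 to 1573 bp, and p was then 0.0667 or 0.10 by the same test, again the smallest possible. With the replicate number as a block it was 1102 bp and no longer passed (exact sign-flip test, two-sided, p = 0.250, the smallest 3 pairs can give).

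That separation has to be read against the whole series. HFD-LSK was wider without overlap at 6.81% of the 4332 gene starts tested, or 295, and narrower at 0% of them, and mean width was higher in HFD-LSK at 93.1% of the gene starts. By the permutation test, 165 gene starts had an unadjusted p under 0.05 for width. The Benjamini-Hochberg adjusted p of Keap1 over all 4332 gene starts, from the exact permutation test, was 0.716. No gene start fell below that value, so none passed. The smallest p of that test is 0.0286, and a gene start could pass only if most of the 4332 had such a p. The adjustment therefore could not single out 1 gene start. As a rank within its own list, a measure chosen after seeing the data, the Keap1 peak was again wider in HFD-LSK, at width percentiles of 2.10, 5.88, and 13.2 compared with 20.1, 52.7, 37.4, and 45.8 in LFD-LSK, which did not overlap (exact permutation test, two-sided, p = 0.0571, and 1.00 after adjustment over the 4332 gene starts). By this measure 138 of the 4332 gene starts were wider in HFD-LSK without overlap and 85 narrower.

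In fold enrichment Keap1 did not separate the diets. Its percentiles were 17.1, 46.3, and 60.4 in HFD-LSK and 15.8, 79.4, 25.2, and 1.95 in LFD-LSK. The LFD-LSK values ran from near the top of the list in replicate 4 to its weak end in replicate 2, on both sides of the HFD-LSK values. The difference of 10.7 was within the spread (exact permutation test, two-sided, p = 0.60). It was 1.10 without HFD-LSK replicate 3 and 27.0 without LFD-LSK replicate 2, and it turned to −8.78 when peaks were ranked by recovered summit fragments, a setting chosen after seeing the data (exact permutation test, two-sided, p = 0.486).

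Among the enzymes, the superoxide dismutases turn superoxide into hydrogen peroxide, Sod1 in the cytosol and Sod2 in mitochondria. The Sod1 start lies at 90220762 on the plus strand of chromosome 16, and its fold percentiles were 14.1, 8.21, and 28.7 in HFD-LSK and 48.4, 9.86, 16.2, and 41.5 in LFD-LSK. Its width was 1239, 1759, and 1626 bp in HFD-LSK and 436, 1109, 1382, and 515 bp in LFD-LSK. Both measures overlapped, with LFD-LSK replicates 1 and 4 weakest and narrowest (percentile difference −12.0, exact permutation test, two-sided, p = 0.343). The width difference of 681 bp was likewise within the spread (exact permutation test, two-sided, p = 0.114). Sod1 was the enzyme with the lowest mean percentile among those called in all 7 lists (23.9 ± 16.0, SD, n = 7), and 26.8% of the 4332 gene starts had a mean nearer the top. By summit fragments the lowest mean among these enzymes was that of Gclm, at 21.6 beside 23.1 at Sod1.

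The Sod2 start lies at 13007839 on the plus strand of chromosome 17. Its fold percentiles were 42.1, 11.9, and 93.2 in HFD-LSK and 44.7, 14.3, 66.3, and 26.2 in LFD-LSK, and its width was 913, 1553, and 637 bp in HFD-LSK and 1024, 1246, 951, and 490 bp in LFD-LSK. The 2 extreme percentiles both belonged to HFD-LSK, so the diets overlapped fully (difference 11.2, exact permutation test, two-sided, p = 0.714). Without HFD-LSK replicate 3, the weakest, the difference was −10.9. Mean width differed by 107 bp (exact permutation test, two-sided, p = 0.771).

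Catalase, the product of Cat, and peroxiredoxin 1, the product of Prdx1, break down hydrogen peroxide. The Cat start lies at 103485153 on the minus strand of chromosome 2, and its percentiles were 22.5, 44.8, and 23.5 in HFD-LSK and 30.4, 4.80, and 4.26 in LFD-LSK replicates 2, 3, and 4. Its width was 1037, 1958, and 1758 bp in HFD-LSK and 1280, 973, and 570 bp in the same LFD-LSK replicates. The strongest Cat peaks were thus in LFD-LSK and the widest in HFD-LSK, but both measures overlapped. With 3 libraries against 3 the smallest p possible is 0.10, and the exact permutation test, two-sided, gave p = 0.30 for a percentile difference of 17.1 and p = 0.20 for a width difference of 643 bp. In LFD-LSK replicate 1 no peak lay within 100 kb of the Cat start.

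Prdx1, with its start at 116685599 on the plus strand of chromosome 4, had percentiles of 51.6, 19.7, and 32.7 in HFD-LSK and 73.1, 42.3, 9.84, and 64.8 in LFD-LSK. Its width was 553, 1392, and 623 bp in HFD-LSK and 570, 742, 754, and 391 bp in LFD-LSK. It was the narrowest of the 8 genes called in all 7 lists (718 ± 322 bp, SD, n = 7), and 90.6% of the 4332 gene starts had a larger mean width. The diets overlapped (percentile difference −12.9, exact permutation test, two-sided, p = 0.543). A long noncoding RNA gene on the opposite strand, AV051173, starts 423 bp downstream of the Prdx1 start, so the peak cannot be assigned to Prdx1 alone.

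Gclc and Gclm encode the catalytic and the modifier subunit of glutamate-cysteine ligase, which makes the first and limiting step of glutathione synthesis. At Gclc (chromosome 9, plus strand, start 77754535) the percentiles were 24.4, 32.3, and 10.1 in HFD-LSK and 29.7, 29.5, 17.7, and 57.2 in LFD-LSK. At Gclm (chromosome 3, plus strand, start 122245487) they were 13.0, 3.50, and 93.2 in HFD-LSK and 9.87, 42.7, 33.0, and 16.1 in LFD-LSK. Gclc had a smaller SD than any other enzyme called in all 7 lists (14.8, n = 7) and Gclm the largest (31.0, n = 7), with a single weak value in HFD-LSK replicate 3. By summit fragments the order turned, with an SD of 12.1 at Gclm and 14.0 at Gclc. Without that library the Gclm difference turned from 11.2 to −17.1.

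The width at Gclc was 685, 1345, and 724 bp in HFD-LSK and 795, 884, 874, and 380 bp in LFD-LSK. At Gclm it was 1236, 1437, and 884 bp in HFD-LSK and 1036, 1277, 932, and 896 bp in LFD-LSK. Neither separated the diets (185 bp at Gclc, exact permutation test, two-sided, p = 0.543, and 150 bp at Gclm, exact permutation test, two-sided, p = 0.40). The median summits lay on the gene side of the start, 313 bp downstream at Gclc and 548 bp downstream at Gclm. Gm46822, a long noncoding RNA gene on the opposite strand, starts 19 bp downstream of the Gclm start.

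Hmox1, which encodes the inducible heme oxygenase and is a classical NRF2 target, had no peak within 1 kb of its start (chromosome 8, plus strand, start 75093618) or elsewhere in the gene in any list. The nearest peak lay 15133, 15065, and 15505 bp away in HFD-LSK and 15243, 15095, 59423, and 15669 bp away in LFD-LSK. In the 6 lists with the shorter distances it lay by the neighboring gene Mcm5, whose start is 15850 bp downstream. A missing call means that no summit there passed the p-value limit against its local background in that list, and not that the mark was absent.

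**Figure D1:**
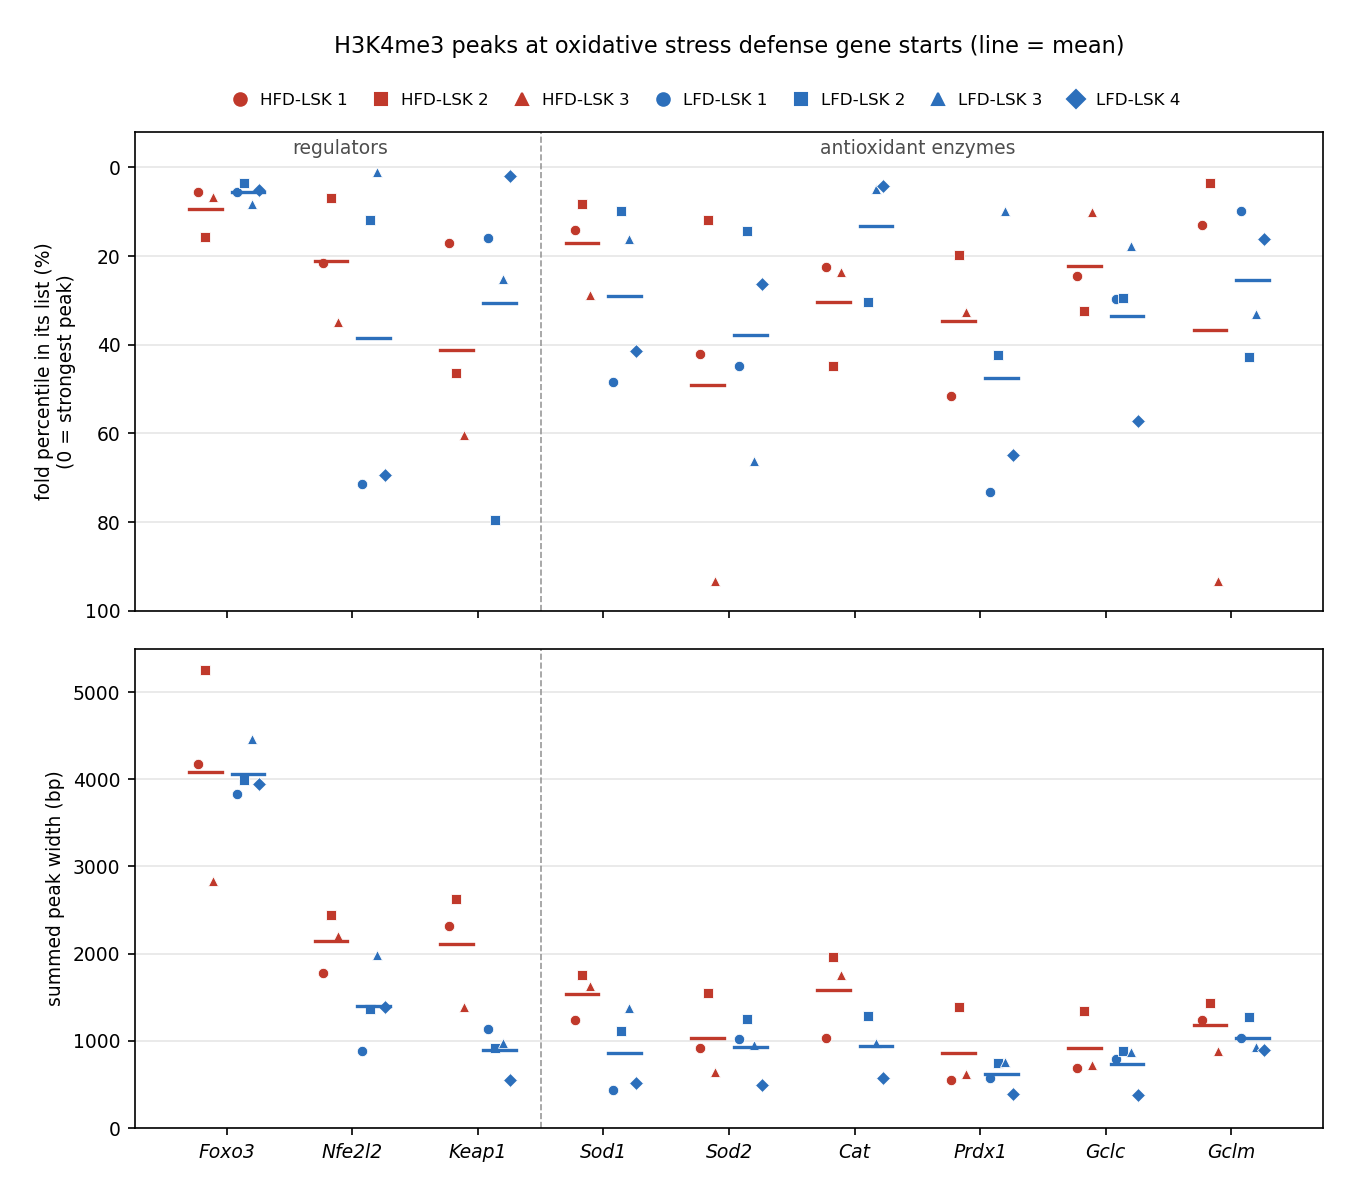
Fold percentile within the list (upper panel, in %, with the strongest peak at the top of the axis) and summed peak width (lower panel, in bp) at the starts of the 9 genes with a peak, for each HFD-LSK library in red and each LFD-LSK library in blue, with short lines at the group means. Foxo3 has the widest peaks, the Keap1 widths of HFD-LSK (1393 to 2623 bp) all lie above those of LFD-LSK (556 to 1131 bp), and the percentiles of the diets overlap at each gene.

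**Figure D2:**
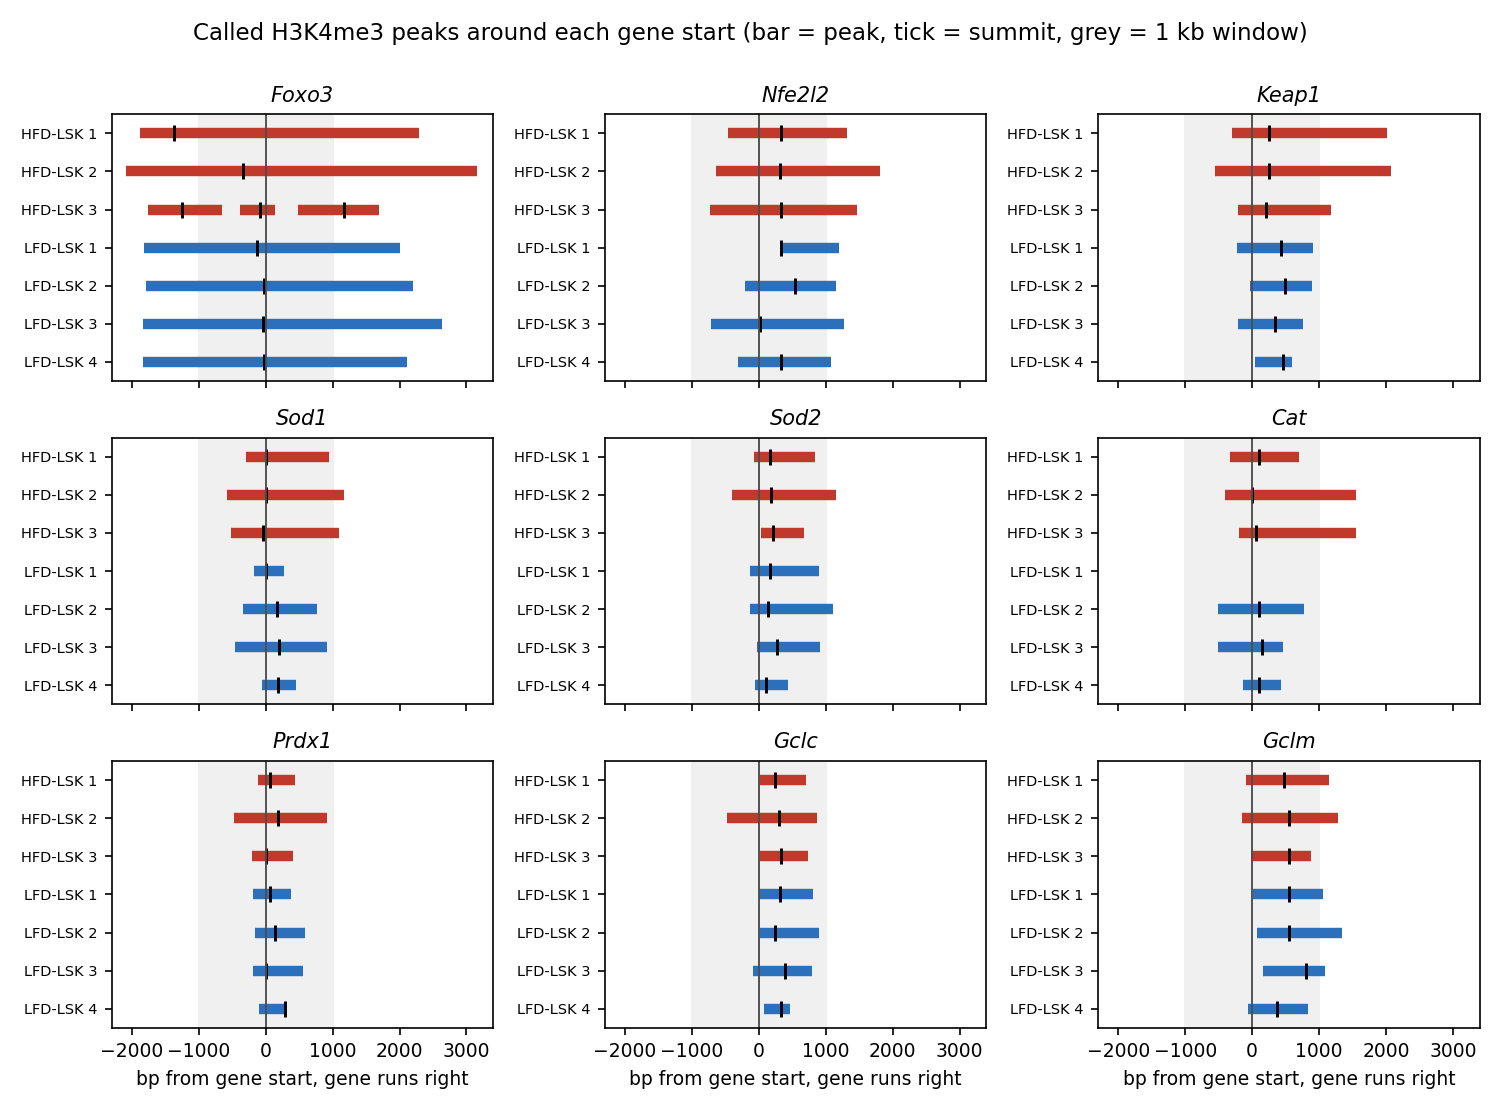
Position of the called peaks around the start of each gene (horizontal axis, bp from the start, with the gene running to the right), 1 row per library, with HFD-LSK in red and LFD-LSK in blue, a tick at each summit, and the 1 kb on either side of the start in grey. The Foxo3 domain reaches up to 2084 bp upstream and 3164 bp downstream and is broken into 3 peaks in HFD-LSK replicate 3, and Cat has no peak in LFD-LSK replicate 1.

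The regulators and the enzymes differed in width in every list. The median width of the 3 regulators was 2313, 2623, and 2202 bp in HFD-LSK and 1131, 1364, 1988, and 1384 bp in LFD-LSK. The median of the called enzymes was 975, 1495, and 804 bp in HFD-LSK and 795, 1178, 942, and 502 bp in LFD-LSK. The regulators were thus 1.16 to 2.75 times as wide as the enzymes, lowest in LFD-LSK replicate 2 and highest in LFD-LSK replicate 4. In bp the gap was 1338, 1128, and 1398 in HFD-LSK and 336, 186, 1046, and 882 in LFD-LSK, which did not overlap and was not tested. Genes are not replicates, so no test is given for this contrast, and Foxo3 and Nfe2l2 each had a larger mean width than any enzyme called in all 7 lists in both diets. Keap1 did so in HFD-LSK, but in LFD-LSK its mean of 895 bp lay below those of Gclm (1035 bp) and Sod2 (928 bp). The median of all called gene starts was 931, 1357, and 892 bp in HFD-LSK and 784, 1054, 906, and 580 bp in LFD-LSK, close to that of the enzymes.

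By the class median of fold percentile, the regulators were nearer the top than the enzymes in 6 of 7 lists. Gene by gene, the mean over the 7 lists set only Foxo3 (7.19) apart. Nfe2l2 (31.0) and Keap1 (35.2) had weaker means than Sod1 (23.9), Gclc (28.7), and Gclm (30.2), and stronger ones than Prdx1 (42.0) and Sod2 (42.7). By summit fragments the regulator means (6.23, 7.35, and 19.2) lay nearer the top than that of any enzyme called in all 7 lists. The regulator median was 17.1, 15.7, and 34.9 in HFD-LSK and 15.8, 11.8, 8.22, and 5.14 in LFD-LSK. The enzyme median was 23.5, 15.8, and 30.7 in HFD-LSK and 44.7, 30.0, 16.9, and 33.9 in LFD-LSK. The regulators minus the enzymes therefore gave −6.35, −0.0630, and 4.19 in HFD-LSK (mean −0.742, SD 5.31) and −29.0, −18.1, −8.71, and −28.7 in LFD-LSK (mean −21.1, SD 9.70). The gap was smaller in each HFD-LSK list than in each LFD-LSK list, a difference in means of 20.4 that is not tested, because it rests on a median of 3 genes. It was 3.78 when peaks were ranked by recovered summit fragments, a setting chosen after seeing the data that leaves out the background.

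Background differed most in 1 library. The recovered background, taken to be the IgG control, is given in the same scaled fragments as the fold. In HFD-LSK replicate 3 it was at least 2 at 24.8% of all peaks and at peaks of 6 of the 10 genes, compared with 0.0269% to 5.03% of the peaks and none of the 10 genes in the other 6 lists. There the background was 3.00 at Keap1, Sod2, and Gclm, each of which lay past the middle of the list by fold, at 60.4, 93.2, and 93.2. By summit fragments the same 3 peaks lay at 7.68, 37.5, and 37.5. The part of the background in these ranks was not tested.

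Over the 8 genes called in all 7 lists, none separated the diets in fold percentile. In the series, HFD-LSK lay nearer the top without overlap at 3.30% of the 4332 gene starts and farther from it at 1.62%, so a count of 0 among 8 is near that background. The exact permutation test gave an unadjusted p under 0.05 for 0 of the 8 genes and for 101 of the 4332 gene starts. The mean was nearer the top in HFD-LSK for 4 genes (Nfe2l2, Sod1, Prdx1, and Gclc) and farther from it for 4 (Foxo3, Keap1, Sod2, and Gclm). Of all 4332 gene starts, 53.9% had a mean nearer the top in HFD-LSK. The median difference was −3.78 over the 8 and −1.71 over all 4332. By recovered summit fragments the mean was nearer the top in HFD-LSK for 8 and farther for 0, beside 74.4% of all 4332 gene starts nearer the top by that ranking. In width, 8 of 8 had a higher mean in HFD-LSK, as did 93.1% of all gene starts, and the median difference was 213 bp over the 8 and 275 bp over all 4332. By width percentile within the list, 5 of the 8 were wider in HFD-LSK and 3 (Foxo3, Sod2, and Gclm) narrower. By that measure 61.2% of all 4332 gene starts were wider. It takes the highest-fold peak alone. At Foxo3 it gave 0.0327, 0.237, and 24.8 in HFD-LSK replicates 1, 2, and 3, beside a mean of 0.0532 in LFD-LSK. The value of 24.8 belongs to 1 of the 3 peaks into which the domain was split. The number of the 8 that were wider in HFD-LSK without overlap was 1, Keap1, beside the 6.81% of the series.

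The widths of whole lists moved in the same direction. Median peak width over a list was 868, 1198, and 757 bp in HFD-LSK (mean 941, SD 229) and 741, 961, 805, and 525 bp in LFD-LSK (mean 758, SD 181), a difference of 183 bp that did not exceed the spread (exact permutation test, two-sided, p = 0.314). Of the 6 stem and progenitor markers called in all 7 lists, 2 were wider in HFD-LSK without overlap (Kit and Tal1) and 1 (Gata2) lay nearer the top, beside 6.81% and 3.30% of the series. The part of list width, depth, or cell composition in the Keap1 difference was not tested.

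Promoter sequence was compared with the peaks. The RefSeq promoter windows of GRCm38.p6, from 250 bases before to 50 bases after the gene start, held 8 of the 10 genes, and Gclc and Hmox1 have no entry. The window of Gclm is set on a start 70 bp downstream of the one used for the peaks. The core of the antioxidant response element, TGACNNNGC on either strand, was found in 4 of these 8 windows, those of Nfe2l2, Sod1, Prdx1, and Gclm, and in 12.4% of all 32851 windows in the table. The FOXO element GTAAACA was in none of the 8 and in 3.65% of all windows. The GC box GGGCGG was in all 8 and in 35.7% of all windows. These shares are over all windows, of called and uncalled genes, and no share among called genes is given. A match describes the letters only and shows no binding.

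The 4 windows with a match are shown so that the letters of the NRF2 motif can be placed beside the measured peaks, each 5′ to 3′ along its gene, with capitals marking the match. A peak covered the whole window in 5 of 7 lists at Nfe2l2 (chr2:75704614-75704913, minus strand), 5 at Sod1 (chr16:90220512-90220811, plus strand), 1 at Prdx1 (chr4:116685349-116685648, plus strand), and 0 at Gclm (chr3:122245307-122245606, plus strand), and a peak touched it in 6, 7, 7, and 6 lists, respectively. The match itself lay under a peak in 5 lists at Nfe2l2, 7 at Sod1, 5 at Prdx1, and 2 at Gclm.
Nfe2l2: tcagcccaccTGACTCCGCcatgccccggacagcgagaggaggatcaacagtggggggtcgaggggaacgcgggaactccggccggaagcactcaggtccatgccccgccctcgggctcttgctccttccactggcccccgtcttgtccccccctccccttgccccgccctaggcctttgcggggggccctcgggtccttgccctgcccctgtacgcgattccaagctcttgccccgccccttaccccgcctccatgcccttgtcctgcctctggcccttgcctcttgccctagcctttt
Sod1: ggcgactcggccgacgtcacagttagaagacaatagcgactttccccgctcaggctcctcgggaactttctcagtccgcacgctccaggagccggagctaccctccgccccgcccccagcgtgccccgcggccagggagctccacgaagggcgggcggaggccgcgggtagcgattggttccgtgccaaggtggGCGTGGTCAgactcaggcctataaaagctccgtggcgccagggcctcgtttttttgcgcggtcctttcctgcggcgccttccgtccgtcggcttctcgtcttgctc
Prdx1: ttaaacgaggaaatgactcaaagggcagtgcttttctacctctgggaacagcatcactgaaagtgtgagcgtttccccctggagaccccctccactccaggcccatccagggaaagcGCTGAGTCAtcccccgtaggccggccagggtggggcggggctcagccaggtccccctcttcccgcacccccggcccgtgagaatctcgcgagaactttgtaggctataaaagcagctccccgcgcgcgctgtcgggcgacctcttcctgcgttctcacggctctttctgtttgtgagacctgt
Gclm: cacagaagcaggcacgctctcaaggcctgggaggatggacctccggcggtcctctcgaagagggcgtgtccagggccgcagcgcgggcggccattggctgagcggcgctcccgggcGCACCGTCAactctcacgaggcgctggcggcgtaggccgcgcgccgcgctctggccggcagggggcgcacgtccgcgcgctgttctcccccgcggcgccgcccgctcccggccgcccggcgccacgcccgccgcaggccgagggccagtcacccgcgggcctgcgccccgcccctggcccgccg

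CpG content also differed among the genes. The window of Gclm held 48 CG dinucleotides, Foxo3 35, Sod1 34, Sod2 21, Prdx1 19, Nfe2l2 18, Keap1 13, and Cat 11, compared with a median of 7 over all windows. The median was 25 for genes called in all 7 lists and 4.00 for genes called in none.

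Related genes of the pathway were taken from 5 lists with 70 genes. Of these, 25 were called in all 7 lists, 25 in some, and 20 in none. None of the 25 lay nearer the top without overlap in HFD-LSK, 1 lay farther from it, 2 were wider, and 0 were narrower, which is close to the shares of the series given above. The median percentile difference of the 25 was 3.56.

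Among 16 other regulators of the NRF2 and FOXO systems, 9 were called in all 7 lists. Sirt1, a deacetylase, and Bach1, a repressor that competes with NRF2, were the strongest, with mean percentiles of 24.3 ± 10.3 and 25.5 ± 11.4 (SD, n = 7). Park7 (60.6 ± 18.1, SD, n = 7) and Cul3 (52.7 ± 21.8, SD, n = 7), the scaffold of the ligase that works with KEAP1, were the weakest. The noncoding RNA gene Gm39667 starts 223 bp from Cul3 on the opposite strand. Mafg, a small MAF partner of NRF2, and Hif1a had no call. Rbx1, the RING subunit of the same ligase, was named after its values were seen. Its width was 897, 1305, and 903 bp in HFD-LSK and 728, 882, 835, and 530 bp in LFD-LSK, which did not overlap (exact permutation test, two-sided, p = 0.0571).

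Of 12 other superoxide and peroxide enzymes, 4 were called in all 7 lists, all of them peroxiredoxins. Prdx5 and Prdx2 had the lowest mean percentiles (21.8 ± 16.1 and 38.8 ± 30.8, SD, n = 7), and Prdx6 and Prdx3 the highest (50.3 ± 21.9 and 50.4 ± 13.0, SD, n = 7). The width at Prdx5, the only one of the 4 without overlap, was 1290, 3335, and 1627 bp in HFD-LSK and 404, 1243, 1090, and 1110 bp in LFD-LSK (difference 1122 bp, exact permutation test, two-sided, p = 0.0286, unadjusted). Trmt112 starts 408 bp from Prdx5 and Rnaseh2a 24 bp from Prdx2, each on the opposite strand, so these peaks cannot be assigned to 1 gene. Sod3, Gpx3, Gpx4, Gpx8, and Prdx4 had no call at their start.

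Of 18 genes of the glutathione and thioredoxin systems, 3 were called in all 7 lists, the glutaredoxin Glrx5 (23.2 ± 21.8, SD, n = 7), the thioredoxin Txn1 (26.1 ± 15.2, SD, n = 7), and the glutathione reductase Gsr (40.2 ± 19.2, SD, n = 7). Noncoding RNA genes on the opposite strand start 339 bp from Glrx5 (Snhg10) and 32 bp from Txn1 (Gm35344). Another 10 were called in some lists. Slc7a11, Ggt1, Txn2, Txnrd1, and Msra had no call.

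Of 13 genes of NADPH supply and other NRF2 targets, 7 were called in all 7 lists. Pgd (20.9 ± 25.3, SD, n = 7), of the pentose phosphate pathway, and Nnt (29.6 ± 19.8, SD, n = 7), the mitochondrial transhydrogenase, lay nearest the top. G6pdx (57.5 ± 21.3, SD, n = 7) and Ftl1 (56.3 ± 27.9, SD, n = 7) lay farthest from it, and Fth1 had no call. Idh1, the cytosolic NADP-dependent isocitrate dehydrogenase, was named after its values were seen, as the 1 of the 25 genes whose percentiles did not overlap. Its percentiles were 55.4, 72.9, and 98.2 in HFD-LSK and 11.3, 35.8, 20.6, and 5.14 in LFD-LSK. The peak was weaker within each HFD-LSK list (difference 57.3, exact permutation test, two-sided, p = 0.0286, and 0.955 after Benjamini-Hochberg adjustment over the 4332 gene starts). Pikfyve starts 161 bp away on the opposite strand, so the peak cannot be assigned to Idh1 alone.

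Among the genes of the oxidant-producing NADPH oxidase, Rac2 (63.2 ± 27.8, SD, n = 7) and Cyba (72.8 ± 18.8, SD, n = 7) were called in all 7 lists, with means in the weaker part of the list. The gene start used here is the outermost annotated base, and 4 of the 20 pathway genes without a call, Hif1a, Gpx4, Txnrd1, and Fth1, held a peak farther inside the gene in at least 5 lists, 6.19 to 6.39 kb from the start at Hif1a and 6.0 to 6.45 kb at Gpx4.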

How the data were processed

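The 10 genes and the gene lists were chosen with earlier results of these data known. Per the submitters' notes, reads were trimmed with Trim Galore, aligned to GRCm38 with Bowtie2, deduplicated with Picard, and peaks were called with MACS2, while bedtools, HOMER, and featureCounts served later steps. The study's methods instead name GRCm39, SEACR, and removal of duplicates in controls alone, and the notes with the files were followed. The fold enrichment of each summit, a ratio to local background, was computed with MACS2 by the authors. The −log10 p and −log10 q of each peak are given as deposited, from the authors' MACS2 run. The score column, as deposited by the authors, equals 10 times the −log10 p cut to a whole number and was not used. The 7 IgG libraries were not analysed here.

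Gene starts are the outermost annotated bases of RefSeq genes (98.0% of coding genes had a strand). The highest-fold peak in the window stood for a gene. The genes named are the 10 set ones, any gene starting within 1 kb of them, of each pathway list the 2 lowest and 2 highest in mean fold percentile among those called in all 7 lists and each gene called in none, and of each marker list the genes called in all 7 or in none. Not every gene of this rule is reported. Other names were chosen after their values were seen. Percentiles, widths, exact permutation tests, and Benjamini-Hochberg adjustment used Python 3.11.15, numpy 2.4.6, pandas 2.3.3, scipy 1.17.1, and matplotlib 3.10.9. Alternatives were windows of 500 bp and 3 kb, a −log10 q of at least 5, equal numbers of peaks, other peaks for a gene, other width and rank measures, a replicate number as block, and leaving out each library.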

Additional observations from a re-analysis of the deposited data

Results flagged for a closer look

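Of 24 groups of 4 libraries that were examined for a value far from the others, 1 met the limit, and chance gives about 1 in 20. It was the number of oxidative stress defense genes called per list in LFD-LSK, which was 8 in replicate 1 and 9 in each of the other 3. The gap divided by the range was 1.00, above Dixon's 95% limit for 4 libraries. When the other 3 counts are equal, this ratio is 1.00 whatever the size of the gap. The difference is the missing Cat peak in LFD-LSK replicate 1, and its cause was not tested.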

How the results depend on the processing

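Of 351 comparisons with the reported values, 289 were counted as unchanged, 34 moved, and 20 turned to the other sign. A further 8, all of them the Keap1 width difference, no longer passed the threshold, without each library in turn and with the replicate block. In those designs p could not fall below 0.05, and the difference was 958 to 1573 bp, beside 1215 bp as reported. The same limit on p held for every gene with the replicate block and without 1 library. A difference that did not pass as reported could thus not come to pass there. Of the 126 single-gene comparisons without 1 library, 109 were counted as unchanged under that limit. Unchanged here means no turn of sign and no crossing of the threshold, and the size could differ. The Foxo3 percentile difference, for example, was 32.3 with the summit nearest the start and 3.71 as reported. The cause was not tested for those that moved or turned. Regulators minus enzymes in fold percentile (−12.4) stayed negative in each alternative, from −15.2 to −9.64 without 1 library.

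With −log10 q of at least 5, the genes called in all 7 lists were 3 (Foxo3, Keap1, and Sod1), and with equal numbers of peaks 5 (Foxo3, Nfe2l2, Sod1, Prdx1, and Gclc), compared with 8 to 9 without 1 library. For the other genes of the 8 no difference was computed under these settings, since they were not called in all 7 lists (Nfe2l2, Sod2, Prdx1, Gclc, and Gclm with the stricter q, and Keap1, Sod2, and Gclm with equal numbers), while Cat was compared over the lists that called it. Genes called per list differed by −0.50 (HFD-LSK minus LFD-LSK) with equal numbers, and by 0 to 0.333 without 1 library. The HFD-LSK minus LFD-LSK gap between regulators and enzymes was 28.9 with the summit nearest the start, 3.78 by summit fragments, and 17.8 to 24.5 without 1 library.

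Gene starts nearer the top in HFD-LSK without overlap numbered 80 with the stricter q, 34 with equal numbers, 261 by fragments, and 207 to 535 without 1 library. Those farther from it numbered 37 with the stricter q, 54 with equal numbers, 25 by fragments, and 115 to 275 without 1 library. Wider ones numbered 171 with the stricter q, 121 with equal numbers, 138 by width percentile, and 296 to 954 without 1 library. Narrower ones numbered 85 by width percentile and 0 to 68 without 1 library. Ranking by fragments and by width percentile was chosen after seeing the data.

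The Foxo3 width difference was −343 bp with a 500 bp window, −144 bp with equal numbers, −543 bp for the highest-fold peak alone, and −550 to 656 bp without 1 library. With a 3 kb window the width difference was 275 bp at Foxo3, 697 bp at Gclc, and 274 bp at Gclm. By fragments the percentile difference was −2.40 at Foxo3, −8.78 at Keap1, −8.45 at Sod2, and −2.34 at Gclm. With equal numbers it was 9.03 at Foxo3, −7.49 at Nfe2l2, −5.24 at Sod1, 32.5 at Cat, −1.60 at Prdx1, and −3.21 at Gclc. Without 1 library the percentile difference ran from −10.9 to 29.7 at Sod2 and from −17.1 to 27.7 at Gclm. The width difference then ran from −153 to 305 bp at Sod2, −26.2 to 393 bp at Prdx1, and −28.8 to 301 bp at Gclc. It was 24.8 to 301 bp at Gclm and 958 to 1573 bp at Keap1. At Keap1 the exact permutation test, two-sided, gave p from 0.0667 to 0.10, above 0.05 for each library left out and the smallest values those designs can give. Percentile differences without 1 library ran from 0.501 to 5.62 at Foxo3, 1.10 to 27.0 at Keap1, −25.4 to −4.31 at Prdx1, −16.6 to −3.38 at Gclc, −29.8 to −6.31 at Nfe2l2, and −18.4 to −5.51 at Sod1. At Cat they ran from 9.85 to 25.7, and the width difference there from 456 to 917 bp.

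With the replicate number as a replicate block, the Foxo3 width difference was −6.67 bp, that of Sod2 −39.3 bp, and that of Keap1 1102 bp (exact sign-flip test, two-sided, p = 0.250, the smallest 3 pairs can give). The labels do not show which libraries with equal numbers, if any, share a cohort.

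The lists carry no read totals, so the part of depth in the calls was not tested. No gene start passed adjustment over the 4332.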
